A study of Mus musculus with 4 samples.

Results

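The MHC class II presentation genes were followed in mouse stromal cells sorted from pancreatic ductal adenocarcinoma. They were chosen by name and number 9 of the 22609 genes in the count table: the chain genes H2-Aa, H2-Ab1 and H2-Eb1, the invariant chain gene Cd74, the transactivator gene Ciita, the peptide editor genes H2-DMa, H2-DMb1 and H2-Oa, and the protease gene Ctss. The table lists them in lower case (cd74, h2-aa, h2-ab1, h2-eb1, ciita, h2-dma, h2-dmb1, h2-oa and ctss). All cells carried FAP, a surface protease of tumour stroma, and were split by CD34, a surface sialomucin. FAP+ CD34+ cells gave 2 libraries, as did FAP+ CD34- cells, and the titles call them biological replicates. Every tumour came from a spontaneous model on the C57BL/6 background; the sources used here give neither its alleles, nor the age of the mice, nor the number of animals per library. No source says that the replicates came from separate animals, so p-values measure the spread between these libraries. The series concerns the chemokine CXCL12 of FAP-expressing fibroblasts in relation to PD-L1 blockade, and the contrast here asks how class II genes differ with CD34.

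MHC class II molecules are pairs of an alpha and a beta chain that show peptides from endosomes to CD4+ T cells. They assemble on the invariant chain, endosomal proteases such as cathepsin S trim that chain to a fragment held in the groove, and the DM heterodimer exchanges the fragment for peptide, while the DO heterodimer restrains DM. Dendritic cells, macrophages and B cells make class II constantly, many other cells do so under interferon-gamma, and the coactivator CIITA is the switch in both cases. Fibroblasts that carry class II have been described in pancreatic tumours.

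The CD34+ libraries held 10322354 (replicate 1) and 13649942 counts (replicate 2), and the CD34- libraries 13218444 (replicate 1) and 14633561 counts (replicate 2). Levels are CPM, the count scaled to the same column total in every library. The 10 fibroblast markers, led by Col1a2, summed to 40100 and 40000 CPM in the CD34+ libraries and to 41200 and 37500 CPM in the CD34- libraries, most of it from the collagen genes Col1a1, Col1a2 and Col3a1. Of the 10, 5 had a positive and 5 a negative log2 fold change and 0 passed (edgeR; 1 higher and 2 lower with an unadjusted p under 0.05, and 0 by DESeq2). Fap itself, the gene of the sorted protein, was 79.0 and 39.8 CPM in the CD34+ libraries, against 142 and 136 CPM in the CD34- libraries, and Pdgfrb, a growth factor receptor gene, 296 and 330 CPM in the CD34+ libraries, against 599 and 486 CPM in the CD34- libraries. Both were lower in both CD34+ libraries. Pdpn, the podoplanin gene and the 1 marker that was higher with an unadjusted p under 0.05 (edgeR), went the other way. It was 741 and 501 CPM in the CD34+ libraries, against 184 and 374 CPM in the CD34- libraries. In such sorted pools, a different share of cells of a type and a different level of RNA per cell cannot be told apart.

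Most class II genes lay higher in CD34+ than in CD34- cells, and CD34+ replicate 1 had by far the highest sum. Summed over the 9 members, the level was 526 and 203 CPM in the CD34+ libraries, against 117 and 125 CPM in the CD34- libraries. Of the 9 members, 8 passed the filter on low counts and were tested, and H2-Oa did not pass; Ciita passed through its CD34+ libraries alone. The log2 fold change (CD34+ over CD34-) was positive for 7 of these 8, with a median of 1.71, against 6756 of 13875 genes tested and a median of -0.02. Adjusted over all genes by Benjamini-Hochberg, 0 members passed at 0.05 in edgeR's quasi-likelihood test, where 0.0% of all genes were called higher. Without adjustment 5 members had a p under 0.05 and were higher, namely Cd74, Ciita, H2-Aa, H2-Eb1 and H2-Ab1 (edgeR), against 9.81% of all genes, and 0 were lower, against 6.65%. DESeq2 called the same 5 members higher at an adjusted p of 0.05, where it called 2.85% of all genes higher, and 0 members lower, against 1.3% of all genes. Without a filter on low counts edgeR called 3 of the 9 members higher (Cd74, H2-Aa and Ciita), against 0.924% of all genes. Groups did not overlap, with CD34+ higher, for 6 of the 8 tested members, against 23.4% of all genes tested. Without Ciita, whose CD34- counts alone would not have passed the filter, 6 of 7 were positive (median 1.5), 4 had an unadjusted p under 0.05 and were higher, and 5 did not overlap (edgeR). These counts describe members that were chosen with results known. A permutation of 2 against 2 libraries has a smallest exact p of 0.333, so no such test was run.

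**Figure D1:**
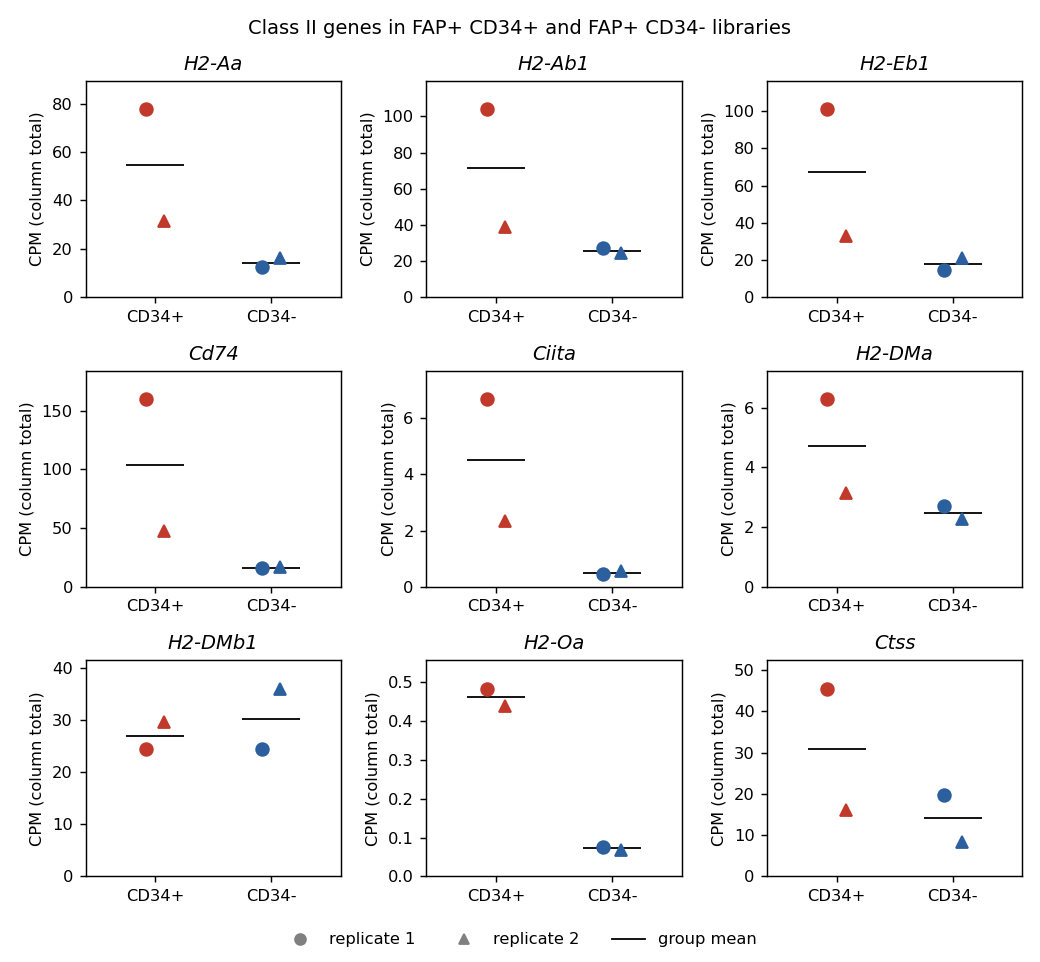
CPM by column total of the 9 members in each library, on linear axes that start at 0 and differ between panels; circles are replicate 1, triangles replicate 2 and lines group means of 2 libraries. Both CD34+ libraries lie above both CD34- libraries for every member but H2-DMb1 and Ctss.

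The chain genes encode the peptide-binding molecule itself. H2-Aa, the I-A alpha chain gene, was 77.7 and 31.4 CPM in the CD34+ libraries, against 12.3 and 16.0 CPM in the CD34- libraries. H2-Ab1, its beta chain partner, was 104 and 38.9 CPM in the CD34+ libraries, against 27.2 and 24.2 CPM in the CD34- libraries. Both genes were highest in CD34+ replicate 1, and the groups did not overlap, although for H2-Ab1 the lower CD34+ library was only 1.43-fold above the higher CD34- library. The log2 fold change was 1.96 for H2-Aa (standard error, SE, 0.48, adjusted p = 0.197) and 1.5 for H2-Ab1 (SE 0.47, adjusted p = 0.236, edgeR), so neither passed.

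H2-Eb1, the I-E beta chain gene, was 101 and 33.1 CPM in the CD34+ libraries, against 14.8 and 20.8 CPM in the CD34- libraries. The lower CD34+ library was 1.59-fold above the higher CD34- library. Its log2 fold change was 1.93, with an SE of 0.56 (adjusted p = 0.227, edgeR). C57BL/6 mice carry a haplotype in which the promoter of the partner gene H2-Ea is deleted, so that the I-E beta chain has no partner chain. H2-Ea (listed as h2-ea-ps) had a count of 1 in CD34+ replicate 2 and of 0 in the other libraries, where a count of 0 allows up to 3 counts (0.205 to 0.291 CPM, counting error only). H2-Eb2, a second beta chain gene similar to H2-Eb1, reached at most 0.440 CPM in a library, so few of the reads were assigned to it.

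Class II promoters are known for a paired X and Y box, the first bound by the RFX complex and the second by NF-Y, with CIITA recruited onto both. RefSeq promoter windows (GRCm38.p6, from 250 bases before to 50 after the annotated start) were found for 6 of the 9 members. The windows of 3 are printed because the first pair belongs to chain genes that were higher in CD34+ libraries and the third to H2-DMb1, which was not. Capitals mark the X box core (AG, 2 bases of any kind, AC, 3 bases of any kind, TG) and the Y box (ATTGG, or CCAAT where it lies on the other strand).
H2-Aa (chr17:34287774-34288073, minus strand): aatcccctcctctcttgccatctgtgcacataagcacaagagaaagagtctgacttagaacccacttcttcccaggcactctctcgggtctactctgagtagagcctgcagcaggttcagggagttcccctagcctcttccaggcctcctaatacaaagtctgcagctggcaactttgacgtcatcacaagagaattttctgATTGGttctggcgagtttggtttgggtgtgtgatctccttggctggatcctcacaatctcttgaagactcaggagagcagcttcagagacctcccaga
H2-Eb1 (chr17:34305617-34305916, plus strand): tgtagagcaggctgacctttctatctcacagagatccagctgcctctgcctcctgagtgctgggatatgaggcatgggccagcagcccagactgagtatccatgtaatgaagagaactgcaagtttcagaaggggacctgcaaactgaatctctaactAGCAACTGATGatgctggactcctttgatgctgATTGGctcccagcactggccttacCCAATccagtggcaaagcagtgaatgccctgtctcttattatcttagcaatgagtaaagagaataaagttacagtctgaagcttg
H2-DMb1 (chr17:34152941-34153240, plus strand): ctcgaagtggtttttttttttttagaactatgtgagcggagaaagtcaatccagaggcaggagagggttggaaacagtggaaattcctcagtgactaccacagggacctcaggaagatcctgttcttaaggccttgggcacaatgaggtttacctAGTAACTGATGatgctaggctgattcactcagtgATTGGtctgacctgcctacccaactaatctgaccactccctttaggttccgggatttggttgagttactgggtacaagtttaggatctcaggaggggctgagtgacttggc
Searched on both strands, the X core occurred in 14.8% and the Y box in 37.4% of the 32851 windows of the table. An X core followed by a Y box on the same strand with 10 to 30 bases between them, so without overlap, occurred in 94 windows (0.286%). H2-Eb1 and H2-DMb1 were among them, with 22 bases between the boxes in H2-Eb1 and 23 bases in H2-DMb1, and the X core began at position -92 in H2-Eb1 and -95 in H2-DMb1 from the annotated start. H2-Aa had the Y box at position -48 without these X letters, H2-Oa had both motifs farther apart, and the Ctss window had neither. H2-DMa has 2 windows in the table, of which one had neither motif and the other had a Y box at position -198 alone. The paired boxes were therefore found both in a gene that was higher in CD34+ libraries and in one that was not.

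Cd74 encodes the invariant chain, the chaperone of newly made class II. It was 160 and 47.5 CPM in the CD34+ libraries, against 15.7 and 17.1 CPM in the CD34- libraries. The CD34- libraries were close to each other, and CD34+ replicate 1 was 3.37-fold above CD34+ replicate 2. The lower CD34+ library was still 2.78-fold above the higher CD34- library. The log2 fold change was 2.69 (SE 0.59, adjusted p = 0.177, edgeR), the smallest adjusted p of the members, at rank 270 of 13875 by p. Without CD34+ replicate 1 it was 1.52 (adjusted p = 0.284), and without CD34+ replicate 2 it was 3.30 (adjusted p = 0.154, edgeR).

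Ciita encodes the transactivator that class II transcription depends on. It had 69 and 32 counts in the CD34+ libraries and 6 and 8 counts in the CD34- libraries. These counts were 6.68 and 2.34 CPM in the CD34+ libraries, against 0.454 and 0.547 CPM in the CD34- libraries. Both CD34+ libraries were above both CD34- libraries. At 3.16 (SE 0.72, adjusted p = 0.178, edgeR) its log2 fold change was the largest of the 8 tested members, though it rests on few counts in CD34- cells. On the scale of log2(RPKM + 1), where low genes shrink, it was 0.49.

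The factors that bind class II promoters beside CIITA lay in both directions. Of 7 genes for RFX subunits, NF-Y subunits and Creb1, 7 were tested, 4 were positive and 3 negative, with a median log2 fold change of 0.01, and 0 passed in either direction (edgeR; 0 with an unadjusted p under 0.05, and 0 by DESeq2). Nfyc, an NF-Y subunit gene, was 21.3 and 25.4 CPM in CD34+ libraries, against 36.0 and 29.5 CPM in CD34- libraries. Rfxap, an RFX subunit gene, was 13.3 and 12.3 CPM in CD34+ libraries, against 19.4 and 16.1 CPM in CD34- libraries. For both genes both CD34+ libraries lay below both CD34- libraries, while Rfx5, the DNA-binding RFX subunit gene, was 13.5 and 9.52 CPM in CD34+ libraries, against 7.11 and 9.43 CPM in CD34- libraries.

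Interferon-gamma induces Ciita through its receptor, JAK kinases and the factor IRF1. Of 8 genes on this route 7 were tested, 5 were positive and 2 negative (median 0.30), and 0 passed (edgeR). With an unadjusted p under 0.05, 1 of them, Ifngr2, was lower in CD34+ cells (edgeR), and DESeq2 called 0. Ifng itself had at most 0.0733 CPM in a library. Ifngr2, the signalling chain gene of the receptor, was 101 and 96.3 CPM in CD34+ libraries, against 252 and 145 CPM in CD34- libraries, with both CD34+ libraries below both CD34- libraries (log2 fold change -0.97, SE 0.31, adjusted p = 0.237, edgeR). Irf2 was 17.1 and 10.8 CPM in CD34+ libraries, against 9.0 and 8.61 CPM in CD34- libraries. Socs1, the feedback inhibitor of JAK kinases, was 32.8 and 66.2 CPM in CD34+ libraries, against 17.9 and 38.3 CPM in CD34- libraries, and its groups overlapped.

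**Figure D2:**
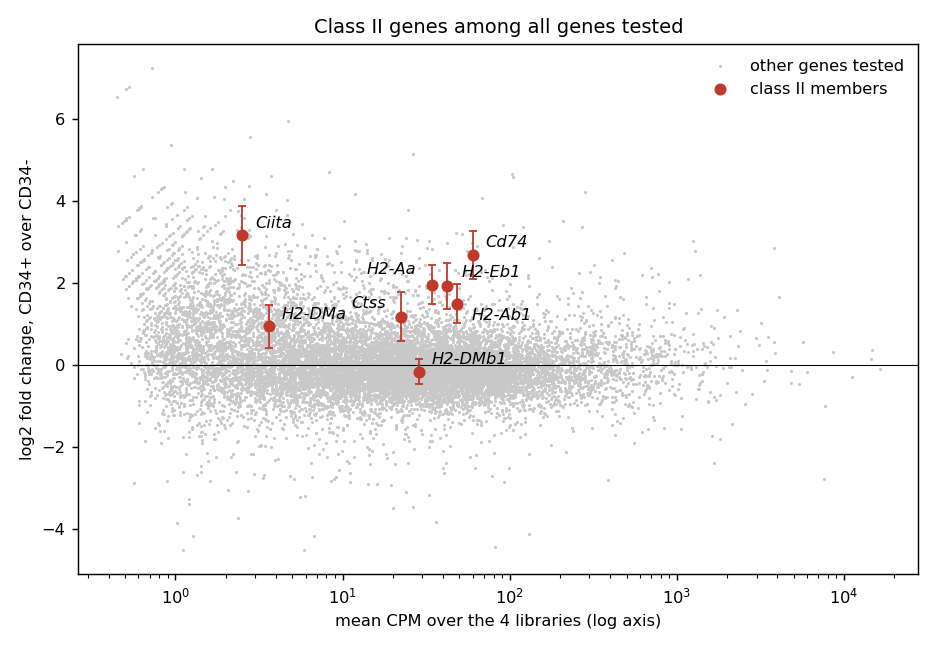
Log2 fold change, CD34+ over CD34-, against mean CPM over the 4 libraries (log axis) for the 13875 genes tested, with the 8 tested members in red and their standard errors as bars. Ciita and Cd74 lie highest at 3.16 and 2.69, and H2-DMb1 lies at -0.16.

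The DM and DO genes encode the heterodimers that edit peptide loading, and no test compared the DM subunit genes with each other. H2-DMa was 6.30 and 3.15 CPM in the CD34+ libraries, against 2.72 and 2.26 CPM in the CD34- libraries. The lower CD34+ library was 1.16-fold above the higher CD34- library. The log2 fold change of H2-DMa, 0.94 (SE 0.53, 95% interval -0.34 to 2.23), did not pass (adjusted p = 0.409, edgeR). H2-DMb1, the gene of the partner subunit, was 24.4 and 29.7 CPM in the CD34+ libraries, against 24.4 and 36.1 CPM in the CD34- libraries. It overlapped between the groups, with a log2 fold change of -0.16 and a 95% interval of -0.92 to 0.60 (adjusted p = 0.822, edgeR). Per gene length, the ratio of H2-DMa to H2-DMb1 in the deposited RPKM was 0.424 and 0.174 in the CD34+ libraries, against 0.183 and 0.103 in the CD34- libraries. This ratio overlapped between the groups. H2-DMb1 is nearly identical to its neighbour H2-DMb2, which had at most 0.303 CPM in a library by the counts. In the deposited FPKM, H2-DMb2 was 0.988 and 2.12 in the CD34+ libraries, against 2.07 and 2.4 in the CD34- libraries. How reads were split between these genes is therefore uncertain.

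H2-Oa, the DO alpha chain gene, had 5 and 6 counts in the CD34+ libraries and 1 count in each CD34- library. Over the summed libraries these 11 against 2 counts gave a ratio of 6.39 with an exact 95% interval of 1.39 to 59.3, which covers counting error only, and amplified copies are not independent molecules. H2-Ob, the DO beta chain gene, reached at most 0.581 CPM. The class II chain and chaperone genes outside the members, which were H2-Ea, H2-Eb2, H2-DMb2 and H2-Ob, had too few counts to be tested.

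Ctss encodes cathepsin S, which trims the invariant chain. It was 45.5 and 16.0 CPM in the CD34+ libraries, against 19.8 and 8.41 CPM in the CD34- libraries. CD34- replicate 1 lay above CD34+ replicate 2, so the groups overlapped. Its log2 fold change, 1.18 (SE 0.59), did not pass (adjusted p = 0.374, edgeR). Within each group replicate 1 was higher, 2.84-fold in CD34+ and 2.36-fold in CD34- cells. Of 8 further endosomal genes, for cathepsins, the thiol reductase GILT, legumain and cystatin C, 4 were positive and 4 negative (median 0.07), and 0 passed (edgeR; 0 with an unadjusted p under 0.05, and 0 by DESeq2). Lgmn, the legumain gene, was 110 and 204 CPM in CD34+ libraries, against 288 and 252 CPM in CD34- libraries. Cst3, the gene of the cysteine protease inhibitor cystatin C, was 450 and 820 CPM in CD34+ libraries, against 341 and 396 CPM in CD34- libraries. Ctsb, the cathepsin B gene, was 977 and 1260 CPM in CD34+ libraries, against 1590 and 1580 CPM in CD34- libraries.

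The 2 membrane ligases that can send surface class II for degradation were also measured. Marchf1 (listed as march1) was 0.872 and 1.03 CPM in CD34+ libraries, against 0.530 and 0.410 CPM in CD34- libraries. Marchf8 (listed as march8) was 34.8 and 46.2 CPM in CD34+ libraries, against 48.5 and 48.1 CPM in CD34- libraries. Their log2 fold changes of 1.03 and -0.24 did not pass (adjusted p = 0.412 and 0.644, edgeR).

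The order of levels differed between the fractions when genes were compared per length by the deposited RPKM. Cd74 had rank 1 of the 9 members in both CD34+ libraries, at 63.3 and 24.4 RPKM. It had rank 5 in both CD34- libraries, at 9.05 and 10.4 RPKM. By the deposited FPKM, Cd74 was also highest in both CD34+ libraries. In both CD34- libraries only H2-Ab1 and H2-DMb1 lay above Cd74 by FPKM, so its rank 5 there depends on RPKM. H2-DMb1 had ranks 6 and 4, at 10.7 and 16.8 RPKM, in CD34+ cells, and ranks 2 and 1, at 15.6 and 24.2 RPKM, in CD34- cells. H2-Ab1, with rank 2 in both CD34+ libraries at 48.8 and 23.7 RPKM, had ranks 1 and 2, at 18.7 and 17.5 RPKM, in CD34- cells. Cd74 was above H2-DMb1 in both CD34+ libraries and below it in both CD34- libraries. The last 3 places were held by H2-DMa, Ciita and H2-Oa in that order in all 4 libraries by RPKM. The order of Ciita and H2-Oa rests on few counts. By the deposited FPKM, H2-Oa lay above Ciita in CD34+ replicate 2 (0.44 against 0.293) and in CD34- replicate 1 (0.0893 against 0.0661). In CD34+ replicate 2, Cd74, H2-Ab1 and H2-Aa lay at 24.4, 23.7 and 21.3 RPKM, differences smaller than those between the CD34+ libraries.

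Levels set against H2-Ab1 within a library remove the library's own scaling. Cd74 over H2-Ab1 in RPKM was 1.30 and 1.03 in the CD34+ libraries, against 0.485 and 0.595 in the CD34- libraries. H2-Aa over H2-Ab1 was 0.834 and 0.900 in the CD34+ libraries, against 0.502 and 0.738 in the CD34- libraries. Both ratios were higher in both CD34+ libraries. H2-Eb1 over H2-Ab1 in RPKM was 0.694 and 0.608 in the CD34+ libraries, against 0.387 and 0.616 in the CD34- libraries. This ratio overlapped narrowly in RPKM, and in the deposited FPKM it was higher in both CD34+ libraries. The genes did not keep 1 ratio across the libraries.

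Markers of macrophages and dendritic cells, which make class II constantly, were present in every library. Of 14 macrophage and monocyte markers, 13 had a positive log2 fold change and 0 passed (edgeR; 2 higher with an unadjusted p under 0.05, and 0 by DESeq2), and none was at 0 in any library. Groups did not overlap, with CD34+ higher, for 4 of the 14, against 23.4% of all genes tested. Their summed level was 215 and 129 CPM in the CD34+ libraries, against 111 and 68.8 CPM in the CD34- libraries. The most abundant, the lysozyme gene Lyz2, was 70.9 and 76.1 CPM in the CD34+ libraries, against 37.9 and 41.8 CPM in the CD34- libraries. Without Lyz2 the sum of the others overlapped between the groups, a split made after the values were seen. The pan-leukocyte gene Ptprc was 5.52 and 3.74 CPM in the CD34+ libraries, against 2.42 and 1.64 CPM in the CD34- libraries. Dendritic cell markers summed to 30.1 and 16.0 CPM in the CD34+ libraries, against 16.6 and 14.2 CPM in the CD34- libraries, led by Zbtb46. Of 9 dendritic cell markers 6 were tested and all 6 were positive, with 0 passing in edgeR and 0 by DESeq2. In edgeR, 2 were higher with an unadjusted p under 0.05. Groups did not overlap, with CD34+ higher, for 3 of these 6, against 23.4% of all genes tested. Flt3 was at 0 in CD34- replicate 1, and Cd209a had at most 0.0733 CPM. Zbtb46 was 11.9 and 6.52 CPM in the CD34+ libraries, against 10.8 and 7.79 CPM in the CD34- libraries, and without it the other dendritic cell markers summed to 18.2 and 9.52 CPM in the CD34+ libraries, against 5.83 and 6.42 CPM in the CD34- libraries, a split made after the values were seen. Itgax, an integrin gene, was 3.78 and 1.17 CPM in the CD34+ libraries, against 0.605 and 0.342 CPM in the CD34- libraries. Xcr1, a chemokine receptor gene, was 5.43 and 2.86 CPM in the CD34+ libraries, against 1.66 and 1.09 CPM in the CD34- libraries. The macrophage sum was thus higher in both CD34+ libraries with Lyz2 and overlapped without it. The dendritic sum overlapped with Zbtb46 and did not overlap without it. What part these cells had in the class II values was not tested.

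The macrophage genes C1qa, C1qb and C1qc, subunits of complement C1q, together were 68.9 and 23.4 CPM in the CD34+ libraries, against 29.7 and 10.5 CPM in the CD34- libraries. Ctss had the same order of libraries, and its ratio to these genes was 0.661 and 0.687 in the CD34+ libraries, against 0.668 and 0.804 in the CD34- libraries. The sum of Cd74, H2-Aa, H2-Ab1 and H2-Eb1 was 442 and 151 CPM in the CD34+ libraries, against 69.9 and 78.1 CPM in the CD34- libraries. Its ratio to the C1q genes was 6.42 and 6.45 in the CD34+ libraries, against 2.36 and 7.47 in the CD34- libraries. Its ratio to the whole macrophage list was 2.06 and 1.17 in the CD34+ libraries, against 0.628 and 1.14 in the CD34- libraries. Set against C1q the groups overlapped, since CD34- replicate 2 had the highest ratio, and set against the whole list the lower CD34+ library was barely above the higher CD34- library. Between CD34+ replicate 2 and CD34- replicate 1, most macrophage markers were lower in the CD34+ library. These were the C1q genes, Itgam, Adgre1, Csf1r, Fcgr1, Mrc1, Tyrobp and Fcer1g. Lyz2 (76.1 CPM against 37.9 CPM), Ptprc (3.74 CPM against 2.42 CPM), Cd68 and Cx3cr1 were higher there. The sum of the whole macrophage list, which includes Lyz2, was also higher there (129 CPM against 111 CPM), as were Cd74 (3.03-fold) and Ciita (5.16-fold). The C1q genes were set apart after their values were seen.

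**Figure D3:**
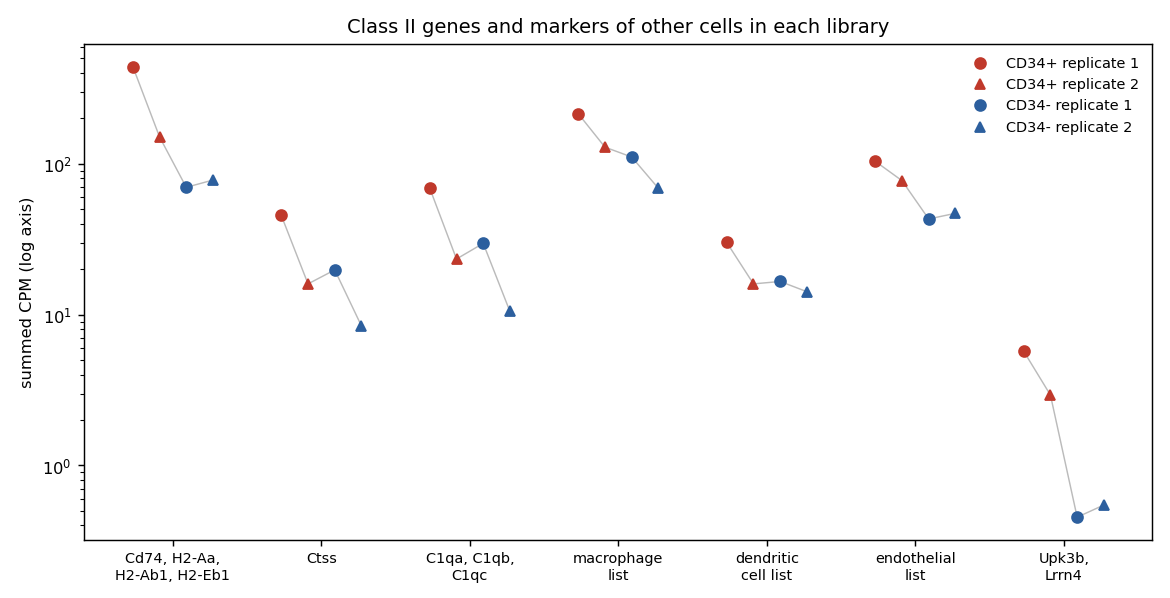
Summed CPM (log axis) of Cd74, H2-Aa, H2-Ab1 and H2-Eb1, of Ctss, and of markers of other cells, with 1 point per library joined by a line within each set. The class II sum, the macrophage and endothelial lists and the Upk3b and Lrrn4 pair are higher in both CD34+ libraries than in both CD34- libraries, while Ctss, C1q and the dendritic cell list overlap. The whole mesothelial list, which overlaps, is not drawn.

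Some endothelial and mesothelial markers were also higher in value in both CD34+ libraries. Of 9 endothelial markers 7 were positive and 0 passed in edgeR, where 6 had an unadjusted p under 0.05 and were higher, against 9.81% of all genes. Groups did not overlap, with CD34+ higher, for 7 of the 9, against 23.4% of all genes tested. With CD34+ lower this held for 2 of the 9, against 3696 of 13875 genes tested. DESeq2 called 3 of the markers higher at an adjusted p of 0.05, namely Pecam1, Vwf and Egfl7, against 2.85% of all genes. None of the 9 was at 0, and they summed to 104 and 77.4 CPM in the CD34+ libraries, against 43.1 and 47.0 CPM in the CD34- libraries. Vwf, the gene of von Willebrand factor and the most abundant of them by the mean over all 4 libraries, was 27.1 and 16.3 CPM in CD34+ libraries, against 3.03 and 3.42 CPM in CD34- libraries. Esam, an adhesion gene and the most abundant of them in both CD34- libraries, was 8.91 and 9.30 CPM in CD34+ libraries, against 13.5 and 17.5 CPM in CD34- libraries. Emcn, the endomucin gene, was 4.84 and 5.27 CPM in CD34+ libraries, against 10.7 and 6.83 CPM in CD34- libraries, so that both genes lay lower in both CD34+ libraries. Of 8 mesothelial markers 5 were positive, 0 passed in edgeR, where 3 had an unadjusted p under 0.05 and were higher, and none was at 0. DESeq2 called 1 of them higher, Lrrn4. The list summed to 820 and 589 CPM in the CD34+ libraries, against 778 and 406 CPM in the CD34- libraries, and overlapped, with the keratin gene Krt8 the most abundant. Within it, Upk3b and Lrrn4 together were 5.72 and 2.93 CPM in the CD34+ libraries, against 0.454 and 0.547 CPM in the CD34- libraries, a pair named after its values were seen. Wt1, the remaining marker with an unadjusted p under 0.05 (edgeR), was more abundant. It was 206 and 120 CPM in the CD34+ libraries, against 57.7 and 79.3 CPM in the CD34- libraries. Of the 8, 3 were negative, among them Msln, the mesothelin gene, and Upk1b (log2 fold changes -0.37 and -0.34, edgeR). Msln was 49.8 and 13.8 CPM in the CD34+ libraries, against 75.0 and 11.6 CPM in the CD34- libraries. The part of these cells in the class II values was not tested.

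T cell activation needs costimulators beside class II, and of these genes none but the adhesion gene Icam1 exceeded 24.6 CPM in a library. Of 7 such genes, all tested, 5 were positive and 2 negative (median log2 fold change 1.33), and 0 passed (edgeR; 3 higher with an unadjusted p under 0.05, and 0 by DESeq2). Cd86, a ligand of CD28, was 3.39 and 1.03 CPM in CD34+ libraries, against 0.378 and 0.478 CPM in CD34- libraries. Icam1 was 435 and 443 CPM in CD34+ libraries, against 106 and 240 CPM in CD34- libraries. Icosl, the gene of the ligand of ICOS, was 2.23 and 6.30 CPM in CD34+ libraries, against 1.13 and 1.57 CPM in CD34- libraries. These 3 genes were named for the smallest p of the list, so that their groups did not overlap is no separate result. Their adjusted p lay between 0.252 and 0.291 (edgeR). Of all 7, groups did not overlap, with CD34+ higher, for 4, against 23.4% of all genes tested. The 2 negative genes were Cd80 and Tnfsf4, with log2 fold changes of -1.06 and -1.28 (edgeR).

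The mean library pattern of Cd74, H2-Aa, H2-Ab1 and H2-Eb1, high in CD34+ replicate 1 and less so in CD34+ replicate 2, was matched by genes with other roles. Of 8918 other genes with a mean of at least 10 CPM, the nearest by Euclidean distance of centred log2 CPM over the 4 libraries was Dot1l, a histone methyltransferase gene, at a distance of 0.188. Dot1l was 308 and 107 CPM in the CD34+ libraries, against 41.4 and 55.7 CPM in the CD34- libraries. Next came Letm2 (distance 0.236), the collagen gene Col28a1 (0.248), the ketohexokinase gene Khk (0.249) and E330033B04Rik (0.287). Of the genes that set this pattern, H2-Aa lay at 0.194 and H2-Eb1 at 0.232 from it. H2-Ab1 lay at 0.575 and Cd74 at 0.621, with 40 and 46 other genes nearer, although both also helped to set it. Ciita lay at 0.957, and of all members H2-DMb1 was farthest at 2.34, with 4764 other genes nearer.

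The direction of the fold change was the same in all 15 other settings for 7 of the 8, H2-DMb1 being the exception. Without CD34+ replicate 1 the log2 fold changes were smaller for H2-Aa (1.13), H2-Ab1 (0.59), H2-Eb1 (0.87), Ciita (2.19), H2-DMa (0.33) and Ctss (0.20), and without CD34+ replicate 2 they were 2.46, 2.03, 2.50, 3.72, 1.35 and 1.73 in the same order.

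**Figure D4:**
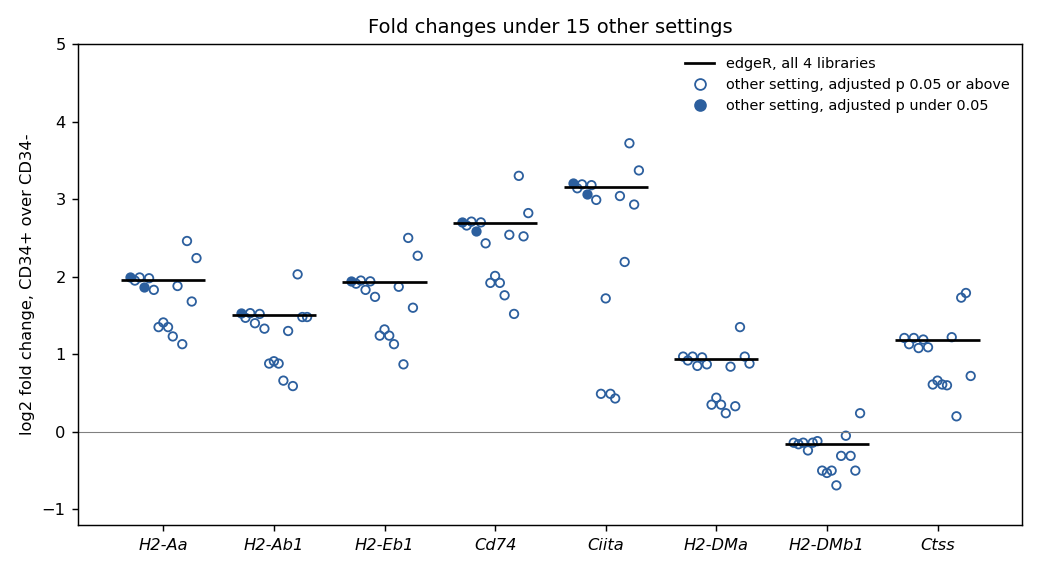
Log2 fold change, CD34+ over CD34-, of the 8 tested members, with black lines for edgeR on all 4 libraries, open points for other settings and filled points for settings with an adjusted p under 0.05. Filled points occur for Cd74, H2-Aa, H2-Ab1, H2-Eb1 and Ciita, and H2-DMb1 lies on both sides of 0.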

How the data were processed

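Counts, RPKM, FPKM and estimated fragment counts per gene were deposited by the authors for 4 libraries, 1 column each. RNA was amplified with MessageAmp per the labels' protocols. Per the submitters' processing notes, Bowtie2, TopHat2, HTSeq and edgeR and the build mm9 were used. The sources used here give no versions, annotation or strand setting, so reads of overlapping genes cannot be told apart. The deposited counts are whole reads per gene, not normalized. RPKM were scaled by the authors to length and to totals that were not the column sums, and FPKM were bias-adjusted per the authors' table name. The deposited estimated counts were rounded. Of each table, 14 columns that match no sample of the series were not used.

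Counts were fitted with edgeR 4.0.16 (R 4.3.3; quasi-likelihood, TMM, filterByExpr, group as the only term, 13875 genes, two-sided, 2 residual and 4.17 prior degrees of freedom, adjusted by Benjamini-Hochberg), tested on simulated data. CPM use column totals, and the standard error is the fold change over the square root of F. Alternatives used DESeq2 1.42.0, limma 3.58.1 with a mean-variance trend, other scalings and filters, a replicate block and leaving out each library. All members were named; of pathway lists, the up to 3 genes of smallest p; of marker lists, the most abundant and those at 0; and the 5 nearest in pattern (log2 CPM with a pseudocount of 0.1). Some genes of these lists, and 1 marker list, are not reported here. Genes outside this rule were chosen after their values were seen. Members and lists were chosen with earlier results of these data known. Symbols came from RefSeq tables of GRCm38.p6, and all 9 members matched.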

Additional observations from a re-analysis of the deposited data

How the results depend on the processing

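Over 15 alternatives, the 8 tested members gave 120 fold changes, of which 111 kept their direction and side of the threshold, 8 newly passed and 1 turned. DESeq2 called 5 members (against 0 by edgeR) and 396 genes higher and 180 lower in all, and edgeR without a filter on low counts called 3 members, 194 and 137. The 3 were Cd74, H2-Aa and Ciita (adjusted p = 0.0105, 0.0287 and 0.0391), and the cause was not tested. Scaling by column totals called 2 genes higher and 0 lower, as did a filter of 1 CPM in 2 libraries; limma called 5 and 7 on log2(RPKM + 1) and 32 and 66 with a pseudocount of 0.1, with 0 members each. A replicate block in the edgeR fit called 39 and 23 genes and 0 members (Cd74 log2 fold change 2.43, adjusted p = 0.0875). The deviations of same-numbered libraries correlated at 0.241 over genes, but no label says that a number marks shared animals. Leaving out any 1 library called 0 genes. H2-DMb1 lay between -0.50 and 0.24 when 1 library was left out, and turned positive without CD34- replicate 2 (0.24). RPKM and FPKM scales shifted the median of all genes (-0.31 on log2(RPKM + 1)), and Cd74 was 1.92 there, 2.22 above that median. H2-Oa could be tested only without the filter, with log2 fold changes of 2.46 and 0.28 (adjusted p = 0.308 and 0.291, edgeR and limma). Ciita in CD34- cells and H2-Oa are limited by their counts.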
